A study of Mus musculus with 8 samples.

Results

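The enzymes that build glycosaminoglycans were followed in the hippocampus of mice with mucopolysaccharidosis VII. The 37 genes of the set were named by enzyme function and not by their values, though earlier results of these data were known. Every probe set carrying 1 of these symbols alone was taken. The array measured 30 of the 37 genes, with 44 probe sets, among 12393 genes in all. They comprised 4 of 5 enzymes of the linker, 14 of 16 of heparan sulfate, 9 of 13 of chondroitin and dermatan sulfate, and 3 of 3 hyaluronan synthases. Xylt1, Ndst1, Hs3st2, Chsy1, Chsy3, Dse and Ust had no probe set with their symbol alone and were not analysed here.

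RNA from the right hippocampus of 8 mice, for which no treatment is named, was hybridised to 1 Affymetrix array per animal, 4 normal and 4 mutant. Normal mice were B6.C-H2-Kbm1/ByBir-Gusb mps/+ and mutant mice were mps/mps on the same background, so that the normal animals carried the mps allele too and were not wild type. Both groups came from 1 colony of carrier matings and shared their cages. The normal mice were a female of 38.3 weeks (normal 1), males of 25.6 weeks (normal 2) and 19.6 weeks (normal 3) and a female of 14.6 weeks (normal 4). The mutant mice were a female of 38.3 weeks (mutant 1), males of 25.6 weeks (mutants 2 and 3) and a female of 19.6 weeks (mutant 4). The series is described as having no replicates, but each array held another animal, and the 4 arrays of a genotype were used as its replicates.

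Glycosaminoglycans are long sugar chains on proteoglycan proteins at the cell surface and in the extracellular matrix. In the Golgi a short linker of xylose, galactose and glucuronic acid is built on a serine, and it is then extended either into heparan sulfate or into chondroitin sulfate, which becomes dermatan sulfate by epimerisation. Sulfotransferases decorate the growing chains, while hyaluronan is made without protein or sulfate by synthases in the plasma membrane. Chondroitin sulfate and hyaluronan are main components of brain matrix and of the nets around some neurons. Gusb encodes beta-glucuronidase, which removes glucuronic acid from these chains in the lysosome, and its loss lets partly degraded chains accumulate. The genes described here act at the other end, in synthesis.

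The regulatory sequence just before the start of 5 genes is given first, because the brightest probe sets of these genes show the array patterns described later. On those probe sets, Chst15, Extl2 and Hs2st1 were highest in the same 4 arrays, and B3gat3 and Chpf2 were lowest in the normal females. Their other probe sets, where a gene has them, do not show the pattern. The 250 bases before the start are from RefSeq on GRCm38.p6, read 5′ to 3′ on the strand of the gene. Capitals mark the GC box GGGCGG, the core of the motif bound by factors of the Sp family, searched on both strands. Chst15 lies on the minus strand at chr7:132317229-132317478 and Hs2st1 on the minus strand at chr3:144570217-144570466. On the plus strand, Extl2 lies at chr3:116007199-116007448, B3gat3 at chr19:8920143-8920392 and Chpf2 at chr5:24586494-24586743. For Chst15, Extl2 and Chpf2, which list 2 starts each, the first was used.
Chst15: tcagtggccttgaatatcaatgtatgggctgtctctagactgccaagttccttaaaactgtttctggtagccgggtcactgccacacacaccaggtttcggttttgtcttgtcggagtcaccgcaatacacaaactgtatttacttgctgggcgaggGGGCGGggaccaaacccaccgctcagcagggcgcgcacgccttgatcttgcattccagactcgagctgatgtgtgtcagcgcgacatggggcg
Extl2: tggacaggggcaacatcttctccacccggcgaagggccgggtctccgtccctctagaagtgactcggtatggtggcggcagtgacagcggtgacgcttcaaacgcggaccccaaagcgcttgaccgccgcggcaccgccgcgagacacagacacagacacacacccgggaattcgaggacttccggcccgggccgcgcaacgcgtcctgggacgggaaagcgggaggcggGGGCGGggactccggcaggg
Hs2st1: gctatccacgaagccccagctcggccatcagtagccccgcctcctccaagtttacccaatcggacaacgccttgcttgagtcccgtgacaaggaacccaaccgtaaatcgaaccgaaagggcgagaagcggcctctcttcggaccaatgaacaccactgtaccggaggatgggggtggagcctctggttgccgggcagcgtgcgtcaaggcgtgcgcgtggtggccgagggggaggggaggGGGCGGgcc
B3gat3: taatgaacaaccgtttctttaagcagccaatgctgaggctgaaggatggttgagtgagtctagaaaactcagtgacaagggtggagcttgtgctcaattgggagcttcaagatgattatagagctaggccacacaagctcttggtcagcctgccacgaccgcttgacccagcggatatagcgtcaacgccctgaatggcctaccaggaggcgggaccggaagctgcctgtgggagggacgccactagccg
Chpf2: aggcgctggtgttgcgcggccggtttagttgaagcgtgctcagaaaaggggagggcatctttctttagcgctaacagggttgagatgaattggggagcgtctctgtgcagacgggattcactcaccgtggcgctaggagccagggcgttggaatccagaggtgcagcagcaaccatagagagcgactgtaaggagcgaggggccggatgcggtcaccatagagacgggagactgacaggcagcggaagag

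Each of the first 3 windows held a GC box, and the windows of B3gat3 and Chpf2 held none. Among genes of the same patterns that are not printed, Chst7 held 1 and Extl1 none in the first pattern. In the second, Chpf held 1 and Ext2 none. A link between motif and pattern was not tested. The RefSeq table used here listed a promoter for 24 of the 30 measured genes. At the first listed start of each, 13 of those 24 held GGGCGG in the same 250 bases, against 32.7% of all 32851 listed promoters. The latter count every start of 27025 genes and are not limited to genes on the array, so the sets are unlike. The E-box CACGTG occurred in 1 of the 24 (Ext2; 6.02% of all promoters). The TATA motif TATAAA also occurred in 1 (Hs6st2; 12.4% of all). Both were searched on both strands and neither overlapped a GC box. These matches describe letters in a window and not sites in use.

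All values are log2 expression, and a change is mutant minus normal with its standard error from limma. Control probe sets for bacterial RNA that no sample contained reached 3.72, and values at or under that level were treated as not separable from background. Array medians lay between 6.09 and 6.17. The RNA of normal 1 stood apart, with control transcripts 3.58 higher at their 3′ than at their 5′ end, against 0.22 to 0.75 in the other arrays. Regional markers differed within the groups. A mean of 6 striatal genes was 9.34 to 10.38 in normals 1, 3 and 4 and 6.60 to 7.70 in the other 5 arrays, and mutants 1 and 3 had means of 8.73 and 7.88 for 7 choroid plexus genes, where the rest had 5.01 to 6.03. Neurod6, a gene of hippocampal and cortical excitatory neurons, was under the background level in normal 1, mutant 2 and mutant 4 despite the hippocampal label, and was 8.68 in mutant 3. For the mutated gene, Gusb, one probe set read 6.56, 5.40, 5.83 and 6.02 in normals 1 to 4 and 4.51, 4.71, 4.36 and 4.62 in mutants 1 to 4 (two-sided exact permutation p = 0.0286, the smallest that 70 arrangements allow). The other Gusb probe set overlapped between the groups and did not separate them (change 0.16, two-sided exact permutation p = 0.657). In whole tissue, fewer cells of a type and less RNA per cell cannot be told apart.

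No gene of glycosaminoglycan synthesis passed the test between mutant and normal hippocampus. Of the 30 genes, 0 reached an adjusted p under 0.05 in limma, and the lowest adjusted p was 0.685 (Chst11). Over all genes 0.105% did so. By probe set, 0 of 44 passed and the lowest adjusted p in limma was 0.800, against 0.0884% of 22626 probe sets that passed. At an unadjusted p under 0.05, 1 of the 30 genes was higher in mutants (Chpf2), where 4.05% of all genes were. In the other direction 2 were lower (Chst11 and Chst15), where 2.48% of all genes were. The mutant mean was the higher in 13 genes and the lower in 17, and the median change was -0.03, against 0.01 over all genes. By class, the median change was 0.18 for the linker, -0.08 for heparan sulfate, -0.01 for chondroitin and dermatan sulfate and -0.22 for hyaluronan.

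The size of difference that these 8 arrays leave possible varied by gene. The 95% interval of the change lay within 2-fold in either direction for 24 of the 30 genes (80%), against 84.2% of all genes. It reached a 2-fold lower level for Ext1 and Chst15 and a 2-fold higher level for Xylt2, B3gat3, Extl3 and Hs6st1. All 4 mutants lay below all 4 normals for 1 gene, Chst11, against 1.61% of all genes. None lay wholly above, against 2.27% of all genes. Over both directions, 2 genes were separated without normal 1, normal 3, mutant 1, mutant 2 or mutant 3 in turn. Without normal 2 there were 6, with Chst11, Chst15, Extl2 and Hs2st1 lower and Chpf and Chpf2 higher in mutants. Fewer arrays make separation easier for any gene. The share over all genes was not counted in these settings, so these counts are no trait of the set. The genes also varied somewhat more across the 8 animals than most did, with a median range of 0.94 against 0.75 over all genes.

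**Figure D1:**
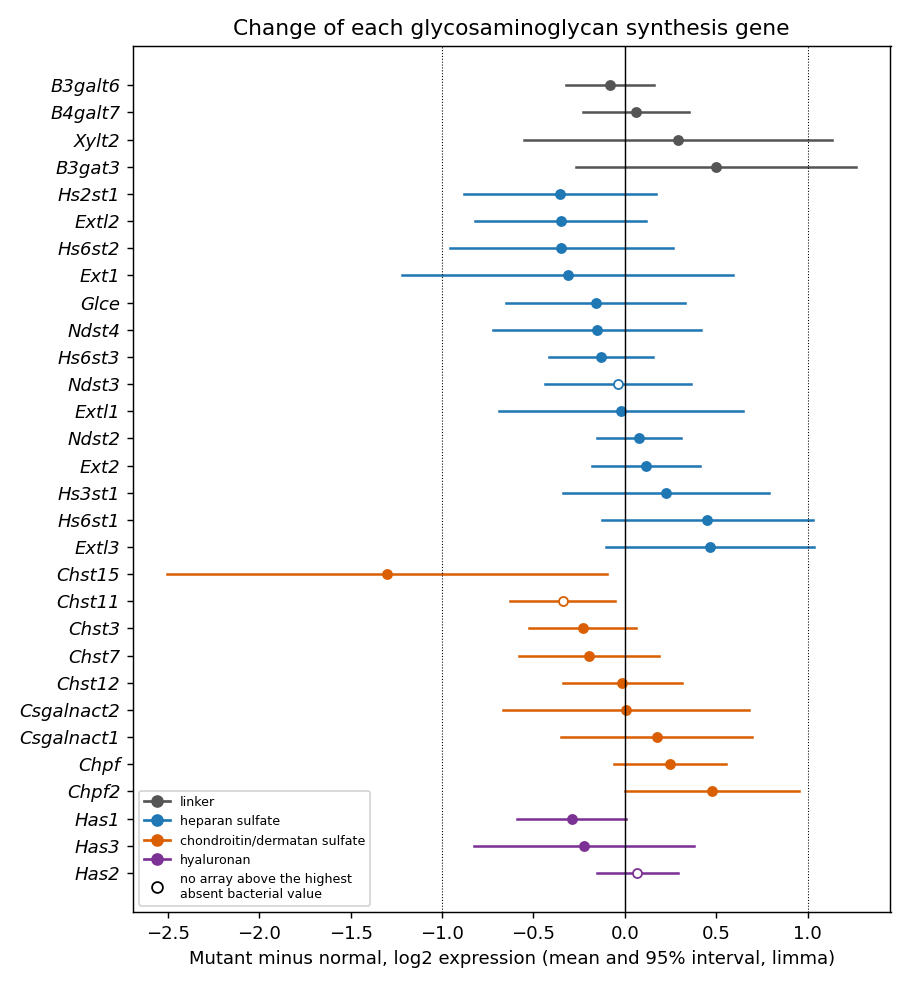
Change of each measured glycosaminoglycan synthesis gene between mutant and normal hippocampus (mutant minus normal, log2 expression; points are limma estimates, lines their 95% intervals, n = 4 mice per group, dotted lines mark 2-fold and open points genes under the background level in every array). Most intervals cross 0 and 24 of 30 lie within 2-fold, while the interval of Chst15 runs from -2.50 to -0.10.

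No linker enzyme separated the genotypes. B3gat3, the glucuronosyltransferase that completes the linker, read 7.07, 8.69, 8.27 and 7.36 in normals 1 to 4 and 8.50, 8.14, 8.25 and 8.48 in mutants 1 to 4. The normal females 1 and 4 were low, while both normal males lay in or above the narrow mutant range, so the groups overlapped. Its change was 0.50 ± 0.34 (limma adjusted p = 0.878), and another probe set of the gene gave -0.23. Against normal 2 alone, the normal without high striatal markers, the B3gat3 change was -0.34, and without normal 1 it was 0.24. The comparison with normal 2 alone, here and below, was chosen after the data were seen.

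Xylt2, a xylosyltransferase that starts the linker on the core protein, read 3.77, 5.46, 4.58 and 4.69 in the normals and 4.45, 5.31, 4.51 and 5.40 in the mutants. Normal 1, the array of poorer RNA, was lowest and close to the background level, and normal 2 was highest. The change of Xylt2 was 0.29 ± 0.37 (limma adjusted p = 0.940) and was -0.55 against normal 2 alone. Without normal 1 it was 0.0065.

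The galactosyltransferases of the linker showed small mean differences on their brightest probe sets. B3galt6, which adds the second galactose, read 7.44, 7.44, 7.22 and 7.49 in the normals and 7.29, 7.22, 7.35 and 7.41 in the mutants. All 8 values fell within 0.27 of each other, and the change was -0.08 ± 0.11 (limma adjusted p = 0.943). B4galt7, which adds the first galactose, ranged from 5.83 to 6.21 over the 8 arrays with a change of 0.06 ± 0.13, on a probe set marked for possible cross-hybridisation. The unmarked B4galt7 probe set ranged from 5.19 to 5.98 with a change of 0.30 ± 0.18, and the linker median was 0.30 without marked probe sets.

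Among the heparan sulfate enzymes, 5 had a higher and 9 a lower mutant mean. Extl3, an N-acetylglucosaminyltransferase that commits the linker to heparan sulfate, read 8.08, 9.13, 9.01 and 8.35 in the normals and 8.87, 9.18, 9.00 and 9.39 in the mutants. The normal females were again the lowest arrays, and the normal males lay among the mutants. Its change was 0.46 ± 0.25 (limma adjusted p = 0.840), and was 0.28 without normal 1 and -0.03 against normal 2 alone. The weaker Extl3 probe set gave -0.49, but only 4 of its 8 values were above the background level. Extl2, a related transferase that can add N-acetylhexosamine to the linker, read 9.88, 9.16, 9.87 and 9.91 in the normals and 9.15, 9.20, 9.72 and 9.34 in the mutants. Normal 2 sat with mutants 1, 2 and 4, and mutant 3 sat nearest the other normals. The change was -0.35 ± 0.21 (limma adjusted p = 0.850), with 0.06 from the other probe set of Extl2, 0.20 against normal 2 alone and 0.05 with regional components as covariates.

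The copolymerase that extends heparan sulfate is formed by the products of Ext1 and Ext2. Ext1 ranged from 6.73 to 7.61 in normals and was 6.48 to 6.52 in mutants 1, 2 and 4 but 8.15 in mutant 3, the highest of all arrays (change -0.31 ± 0.40). Ext2 stayed between 7.48 and 7.91 in every array (change 0.12 ± 0.13). Extl1, a transferase of the same family, also peaked in mutant 3 at 7.65 and was 6.24 to 6.93 elsewhere (change -0.02 ± 0.29). For these 2 genes the range among the mutants was wider than the difference of the group means, which also held for other genes such as Chst15.

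The enzymes that modify heparan sulfate included the N-deacetylase/N-sulfotransferases that open each sulfated stretch. Ndst2 was nearly level, at 6.64 to 6.86 in all arrays (change 0.08 ± 0.10). Ndst4 ranged from 3.85 to 4.90 (-0.15 ± 0.25), and Ndst3 was under the background level in every array, so its change of -0.04 is no measure of its level. Glce, the epimerase that turns glucuronic into iduronic acid, ranged from 7.38 to 8.28 (-0.16 ± 0.21). Hs2st1, which sulfates iduronic acid, was 9.15 to 9.31 in normals 1, 3 and 4 and 8.32 in normal 2, against 8.43 to 8.96 in mutants (-0.36 ± 0.23), and its other probe sets gave -0.07 and 0.21. Hs3st1, whose product makes the antithrombin-binding form of the chain, ranged from 6.99 to 8.12 (0.22 ± 0.25).

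The 6-O-sulfotransferases of heparan sulfate differed from each other. Hs6st1 read 7.26, 7.27, 6.97 and 6.41 in the normals and 6.90, 7.79, 7.33 and 7.70 in the mutants. Mutants 2, 3 and 4 were above all normals and mutant 1 was below 3 of them, for a change of 0.45 ± 0.25 (limma adjusted p = 0.843). It was 0.26 without normal 4, 0.21 with regional components and 0.16 against normal 2 alone. Hs6st3 ranged from 3.85 to 4.31 (-0.13 ± 0.13). The brightest probe set of Hs6st2 was 8.56 to 9.89 in normals and 8.78 to 8.90 in mutants (-0.35 ± 0.27), with the normal females highest.

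A dimmer Hs6st2 probe set, chosen after its values were seen, read 6.25, 6.23, 6.37 and 7.91 in the normals and 5.72, 5.57, 5.97 and 5.51 in the mutants. All 4 mutants lay below all 4 normals, and normal 4, the youngest mouse, was far above the rest. The change was -0.99 ± 0.37 (limma adjusted p = 0.804 over all probe sets). Of the 44 probe sets, 2 had mutants wholly below normals, against 1.75% of all probe sets, and 0 had them wholly above, against 1.81%. The third Hs6st2 probe set was under the background level in every array.

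Chondroitin and dermatan sulfate enzymes held the widest difference of the set. Chst15, which adds a further sulfate to chondroitin 4-sulfate to give the highly sulfated E unit, read 8.66, 6.93, 8.64 and 8.67 in normals 1 to 4 and 7.07, 6.05, 8.10 and 6.45 in mutants 1 to 4. Normals 1, 3 and 4 were high and nearly equal, normal 2 lay below mutants 1 and 3, and mutant 3 lay close to the high normals. The means were 8.22 ± 0.86 and 6.92 ± 0.89 (SD, n = 4 each), a 2.46-fold lower mutant mean with a log2 change of -1.30 ± 0.53 and a 95% interval from -2.50 to -0.10. The adjusted p in limma was 0.719. A second Chst15 probe set gave -0.85 ± 0.74. Chst15 was high in the same 3 normals as the striatal genes and in the 4 arrays highest for CA1 genes given further on. Against normal 2 alone its change was -0.0044, but normal 2 was the lowest normal for Chst15. With the first 2 components of the regional marker lists as covariates the change was -0.28. The striatal list in those components was high in 3 normals and in no mutant, so that fit does not cleanly separate region from genotype. Without mutants 1 and 3, high in choroid plexus genes, the change was -1.97.

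Chpf2, an accessory subunit of chondroitin polymerisation, read 5.18, 6.11, 5.85 and 5.29 in the normals and 6.15, 6.05, 5.97 and 6.16 in the mutants. The normal females were low, and normal 2 lay within the tight mutant range. The change was 0.48 ± 0.21 (limma adjusted p = 0.765) and -0.03 against normal 2 alone. Its relative Chpf was 7.20 to 7.56 in normals and 7.33 to 7.75 in mutants (0.25 ± 0.13), also with both normal females among the lowest arrays.

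Chst11, a 4-O-sulfotransferase of chondroitin, read 3.04, 3.30, 3.40 and 3.01 in the normals and 2.99, 2.76, 2.82 and 2.83 in the mutants. The groups did not overlap, with normal 4 and mutant 1 nearly touching, but every value was under the background level of 3.72. Its change of -0.34 ± 0.13 (limma adjusted p = 0.685) is therefore no measure of a difference in transcript. Chst12, with the same activity, ranged from 6.17 to 6.72 with a change of -0.01 ± 0.14.

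The remaining chondroitin genes showed small mean differences. Csgalnact1 and Csgalnact2 encode the transferases that add the first N-acetylgalactosamine and so commit the linker to chondroitin. Csgalnact1 ranged from 6.46 to 7.44 (0.18 ± 0.23; -0.17 on another probe set) and Csgalnact2 from 5.27 to 6.60 (0.01 ± 0.30). The 6-O-sulfotransferases Chst3, at 4.09 to 4.74, and Chst7, at 3.97 to 4.71, had changes of -0.23 ± 0.13 and -0.20 ± 0.17. The near-zero mean of Csgalnact2 hid a spread within each genotype that is described by sex further on.

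**Figure D2:**
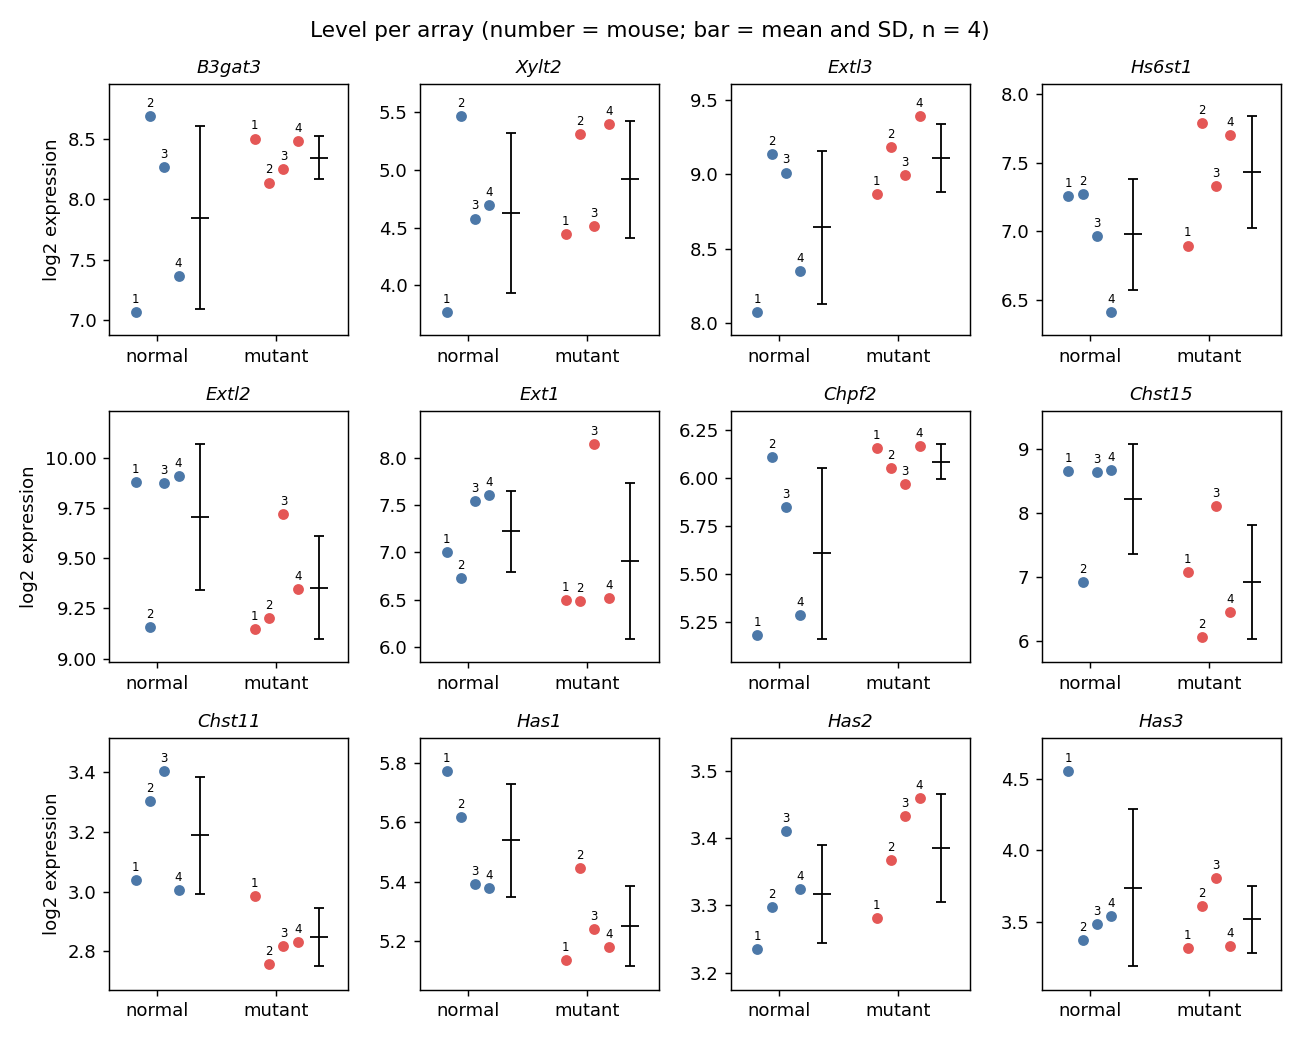
Log2 expression of 12 glycosaminoglycan synthesis genes in each mouse (points numbered by mouse; bars are mean and SD, n = 4 per group; each panel has its own axis, which does not start at 0). Chst15 is high in normals 1, 3 and 4 and in mutant 3, B3gat3 and Chpf2 are low in normals 1 and 4, and the values of Chst11 and Has2 are all under the background level of 3.72.

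The hyaluronan synthases gave no gene above background with separated groups. Has1 read 5.77, 5.62, 5.39 and 5.38 in the normals and 5.14, 5.44, 5.24 and 5.18 in the mutants. Mutants 1, 3 and 4 were below all normals and mutant 2 lay among them, for a change of -0.29 ± 0.13 (limma adjusted p = 0.773). Has2 read 3.23, 3.30, 3.41 and 3.32 in the normals and 3.28, 3.37, 3.43 and 3.46 in the mutants, all under the background level (0.07 ± 0.10, limma adjusted p = 0.945). Has3 read 4.55, 3.37, 3.48 and 3.54 in the normals and 3.32, 3.61, 3.81 and 3.33 in the mutants. Apart from normal 1, the array of poorer RNA, and mutant 3, every Has3 value was under the background level. The Has3 change was -0.22 ± 0.26 (limma adjusted p = 0.934) and turned to 0.05 without normal 1.

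Other genes of the pathway also gave no call. Of 29 measured genes out of 44 listed for precursor supply, further chain enzymes and chain editing, 0 passed adjusted p 0.05 in limma, 15 had a higher and 14 a lower mutant mean, and the median change was 0.05. In precursor supply (14 of 17 measured, 6 higher and 8 lower, median -0.03), the smallest p belonged to Papss2, a synthase of the sulfate donor PAPS. Papss2 read 8.23, 6.81, 7.18 and 7.69 in the normals and 6.88, 6.28, 6.98 and 6.52 in the mutants. Normal 2 lay below mutants 1 and 3, so the groups overlapped (change -0.81 ± 0.30, limma adjusted p = 0.687). The Papss2 change was -0.21 with regional components and -0.14 against normal 2 alone. The sulfate transporter gene Slc26a2 read 6.45, 5.68, 5.66 and 5.29 in the normals and 6.07, 6.26, 6.45 and 6.56 in the mutants. Normal 1 alone lay among the mutants (change 0.57 ± 0.24, limma adjusted p = 0.744). Uxs1, which makes UDP-xylose for the first linker sugar, read 8.26, 8.37, 9.03 and 8.54 in the normals and 8.21, 8.08, 8.40 and 7.42 in the mutants (change -0.52 ± 0.24, limma adjusted p = 0.776).

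Further chain enzymes (9 of 17 measured, 6 higher and 3 lower, median 0.11) included Fam20b, the kinase that phosphorylates the linker xylose. Fam20b read 8.32, 8.35, 8.34 and 8.53 in the normals and 8.56, 8.47, 8.56 and 8.61 in the mutants. Only normal 4 lay within the mutant range (change 0.17 ± 0.10, limma adjusted p = 0.859). The mean of all Fam20b probe sets gave -0.20. Chst2, an N-acetylglucosamine 6-O-sulfotransferase, read 8.27, 7.97, 7.75 and 8.08 in the normals and 7.78, 8.29, 9.01 and 8.46 in the mutants (0.37 ± 0.25, limma adjusted p = 0.873). B4galt4, a galactosyltransferase that takes part in keratan sulfate synthesis, read 6.89, 6.22, 6.06 and 6.89 in the normals and 6.32, 6.62, 7.31 and 6.72 in the mutants (0.23 ± 0.27, limma adjusted p = 0.932). Mutant 3 was the highest array for both Chst2 and B4galt4.

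Chain editing and turnover (6 of 10 measured, 3 higher and 3 lower, median 0.00) was led by Cemip2, which encodes a cell surface protein linked to hyaluronan breakdown. Cemip2 read 6.46, 6.12, 5.66 and 6.55 in the normals and 6.03, 6.74, 6.77 and 6.77 in the mutants. Mutants 2 to 4 were above all normals and mutant 1 was not (0.38 ± 0.24, limma adjusted p = 0.869). Hyal3, a hyaluronidase family gene, was under the background level in every array, at 3.38, 3.50, 3.43 and 3.22 in the normals and 3.19, 3.21, 3.34 and 3.34 in the mutants. Cemip, needed for hyaluronan depolymerisation, read 4.28, 4.32, 4.33 and 4.52 in the normals and 4.46, 3.97, 4.22 and 4.29 in the mutants (-0.13 ± 0.13, limma adjusted p = 0.921).

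Several synthesis genes ordered the arrays in a way that crossed the genotypes. A mean of 3 genes of CA1 pyramidal neurons (Wfs1, Pou3f1 and Dkk3) was 9.63 in mutant 3, 9.25 in normal 4, 8.80 in normal 1 and 8.73 in normal 3, and 7.37 to 7.72 in the other 4 arrays. The order was not that of a related list: the mean of 5 hippocampal and cortical excitatory genes was 7.80, 6.51 and 7.53 in mutant 3, normal 4 and normal 3 but 5.25 in normal 1, below normal 2 (5.45) and mutant 1 (6.15). On the probe set used for each gene, Ext1, Extl1, Extl2, Hs2st1, Chst7 and Chst15 had their 4 highest values in the 4 arrays highest for the CA1 genes. They are 6 of the 30 genes (20%), and 4.56% of all genes had this order. Chpf2 was the 1 gene whose 4 lowest values fell in those arrays, an order found in 4.95% of all genes. Ext1, Extl1 and Chst7 have no other probe set, and no other probe set of the remaining genes had this order. The second Extl2 probe set was lowest in mutant 3 (8.76) and normal 4 (8.96). The second Chst15 probe set was 6.01 to 6.67 in normals 3 and 4 and mutant 3 but 3.81 in normal 1. Of the further Hs2st1 probe sets, one was lowest in normal 3 (5.92) and the other had normal 3 (6.40) below mutants 2, 3 and 4. The 4 arrays of this order were set by the CA1 list alone, chosen with earlier results of these data known. They differed in other regional lists too. A mean of 10 thalamic and habenular genes was 6.70 to 8.85 in these 4 arrays and 8.35 to 10.15 in the others. A mean of 5 dentate gyrus genes was highest in mutant 3 (5.80) and next in mutant 1 (4.80), so it did not follow the order. The 6 genes span chain polymerisation (Ext1, Extl1), the linker junction (Extl2) and sulfation of both chain types (Hs2st1, Chst7, Chst15). The RefSeq table used here listed a promoter for 5 of the 6 genes. A GC box was held by 4 of these (Extl2, Hs2st1, Chst15 and Chst7), against 13 of the 24 measured genes with a listed promoter. A link between motif and order was not tested. Normals 1, 3 and 4 were at the same time the arrays of high striatal markers, which mutant 3 was not (6.60), so the striatal genes follow this order in the normals alone. The fits with regional components do not cleanly separate region from genotype, and what part the regional makeup of the tissue has in these levels was not tested.

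**Figure D3:**
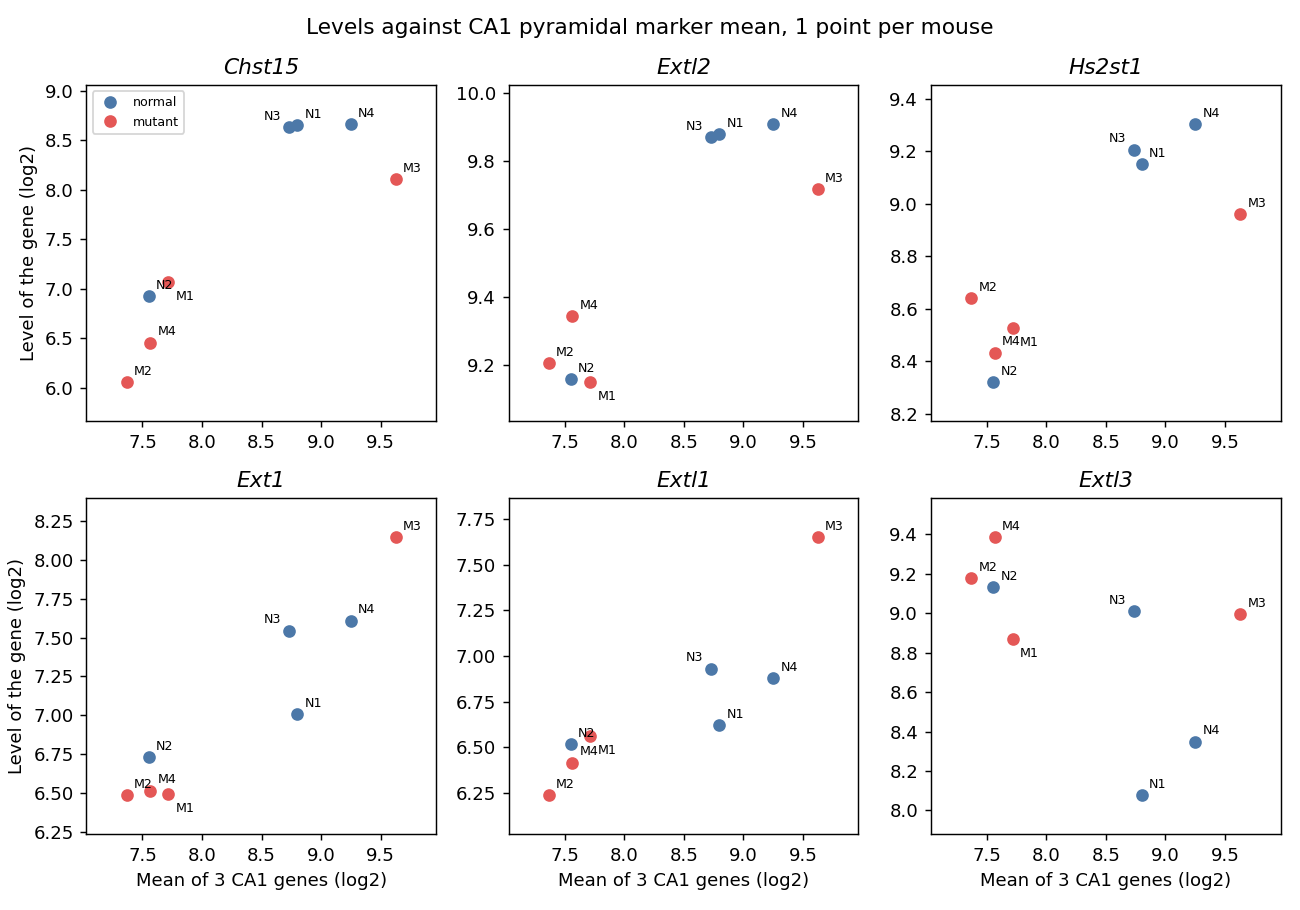
Log2 expression of 6 heparan or chondroitin sulfate enzymes (vertical axes) against the mean of 3 CA1 pyramidal genes (horizontal axes), 1 point per mouse, labelled N for normal and M for mutant. Normals 1, 3 and 4 and mutant 3 form the upper right group for Chst15, Extl2, Hs2st1, Ext1 and Extl1, and Extl3 is shown as a gene without this order.

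Other cell markers differed between the genotypes as well. The means of the microglial list were 7.71 to 8.45 in normals and 8.79 to 9.18 in mutants, those of the astrocyte list 8.92 to 9.28 and 9.48 to 9.61, and those of the oligodendrocyte list 9.45 to 9.91 and 8.44 to 9.27. The list means hide genes that went the other way. A higher mutant mean was found in 8 of 11 measured microglial genes, 9 of 10 astrocyte genes and 0 of 9 oligodendrocyte genes. The mutant means of P2ry12, Cx3cr1 and Csf1r were lower, with P2ry12 at 7.61 to 8.69 in normals and 7.16 to 8.09 in mutants. The part of these cell markers in the levels of the synthesis genes was not tested.

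Sex and genotype were crossed, with 2 mice of each sex in each group. With genotype as a term, 0 of the 30 genes differed between males and females at an adjusted p under 0.05 in limma (lowest 1.00), against 0.0323% of all genes. For the difference of the mutant effect between the sexes, 0 of 30 and 0% of all genes passed at an adjusted p under 0.05 in limma. The lowest adjusted p among the 30 was 0.340. At an unadjusted p under 0.05, 8 of the 30 passed (B3gat3, Ext2, Extl3, Hs6st2, Chpf2, Csgalnact1, Csgalnact2 and Chst7), where 11.5% of all genes did.

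The largest of these was B3gat3, with a mutant minus normal difference of 1.28 in females and -0.28 in males, a difference between the sexes of 1.56 ± 0.28. Csgalnact2 had -0.71 in females and 0.73 in males, opposite signs behind a mean change of 0.01, and its lowest arrays were the normal males. In Chpf2 the differences were 0.93 and 0.03, in Extl3 0.91 and 0.01, and in Hs6st2 -0.84 and 0.15, so that the female difference was the larger. Csgalnact1 had -0.29 and 0.64, the larger difference in males. The normal females lay together at 1 end of several genes. Both were the lowest of all 8 arrays for 5 genes (B3gat3, Ext2, Extl3, Chpf and Chpf2), an order held by 5.15% of all genes, and the highest for 7 (B3galt6, Extl2, Glce, Hs6st2, Csgalnact2, Chst7 and Chst15), an order held by 7.57%. These counts use 1 probe set per gene, and the dimmer B3gat3 probe set was lowest in mutants 4 and 1. The RefSeq table used here listed a promoter for 4 of the 5 low genes, of which 1 held a GC box (Chpf). Of the 7 high genes, Extl2, Glce, Csgalnact2, Chst7 and Chst15 held a GC box, and B3galt6 and Hs6st2 held none. Among all measured genes with a listed promoter, 13 of 24 held a GC box. A link between motif and pattern was not tested.

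The normal females were the oldest and the youngest of the normal mice, normal 1 was the array of poorer RNA, and both were among the 3 arrays high in striatal genes. Sex, these features and the individual animals cannot be told apart with 2 mice per cell. Without normal 1, 5 of the 30 genes passed the unadjusted threshold (B3gat3, Ndst3, Hs6st2, Chpf2 and Csgalnact2) and 15.6% of all genes did. Without normal 4, 9 did, against 17.5% of all genes. B3gat3, Hs6st2, Chpf2 and Csgalnact2 were among those past it each time.

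**Figure D4:**
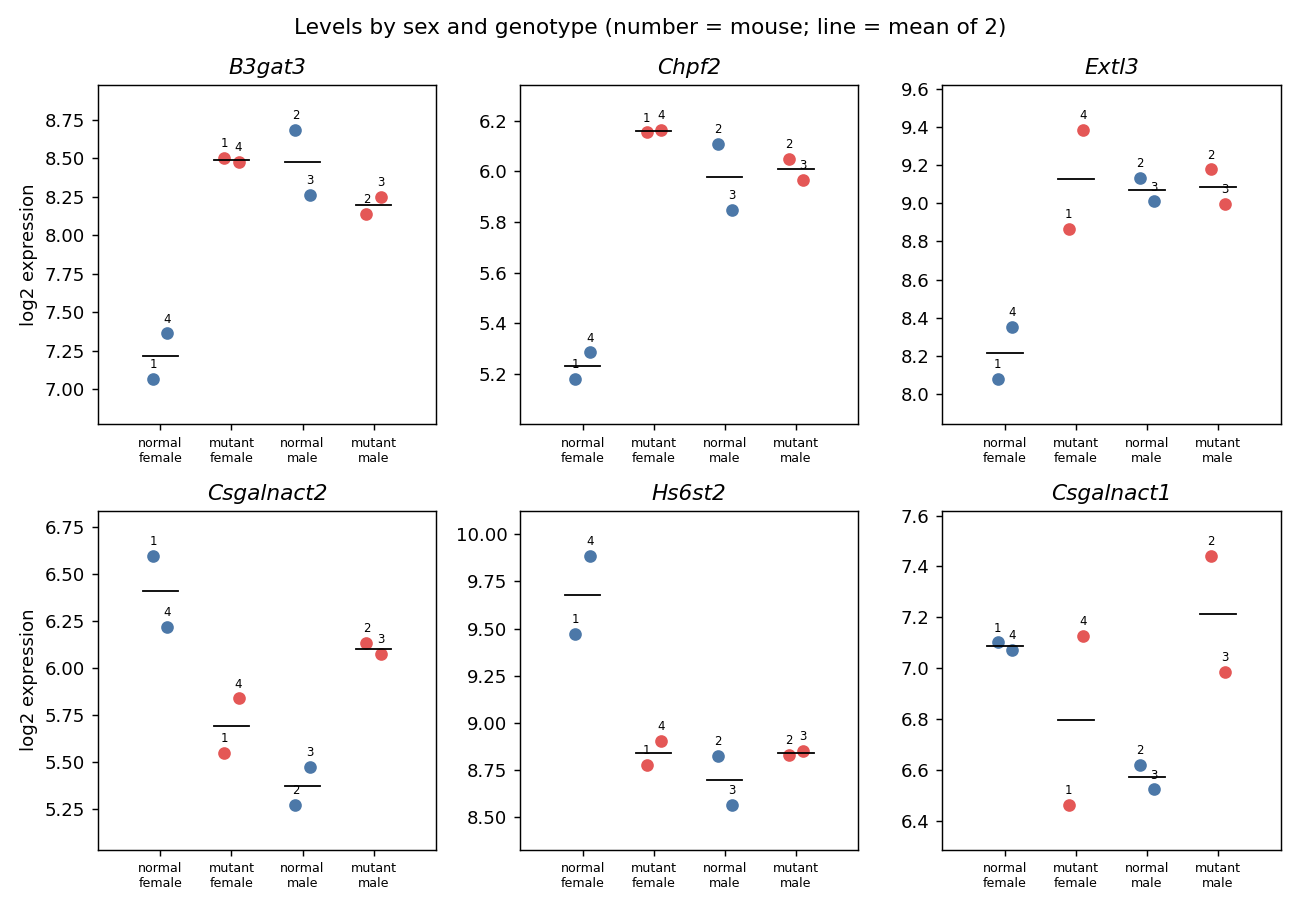
Log2 expression of 6 glycosaminoglycan synthesis genes by sex and genotype (points numbered by mouse, line = mean of 2 mice; axes do not start at 0). The normal females, mice 1 and 4, lie below the other 6 mice for B3gat3, Chpf2 and Extl3 and above them for Csgalnact2 and Hs6st2.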

How the data were processed

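The deposited values are log2 expression, made by the authors with RMA, which corrects background, normalizes and summarises each probe set, with GCOS 1.4 also named, per the submitters' processing notes. The genome build is not given in the sources used here. Of 22690 probe sets, 64 were controls and 20380 of the rest carried 1 symbol in the platform annotation. The brightest probe set by mean over all 8 arrays stood for a gene, which left 12393 genes with no filter on dim ones. RMA gives relative levels of each probe set, so no probe set was set against another.

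The genotypes were compared by lmFit and eBayes of limma 3.58.1, run under R 4.3.3, adjusted by Benjamini-Hochberg over all genes or all 22626 probe sets that are no controls, at 0.05. The steps were tested on simulated data, and figures were drawn with Python 3.11.15. Background is the highest of 15 probe sets for absent bacterial transcripts, 3.72. The number of animals limits the precision, and the p-values measure the spread between these 8 mice. The genes, lists and patterns were chosen with earlier results of these data known. Values in every array are given for Gusb, for members among the 3 of smallest unadjusted p of their class, changing by 0.5 or more, with groups that do not overlap, or with probe sets of opposite sign of which 1 changes by 0.5 or more, and for the 3 genes of smallest p of each other list. The RefSeq tables used here are incomplete. Alternatives were the mean of probe sets, no probe sets marked for cross-hybridisation, no dim 40% of genes, further quantile normalization or median centring, trended robust eBayes, weights per array, sex and age as covariates singly and together, age or animal number series as block, regional components as covariates, and leaving out each animal. Leaving out normals 1, 3 and 4 together, or mutants 1 and 3, was chosen after seeing the data, and normal 2 alone was then assumed to vary like the mutants.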

Additional observations from a re-analysis of the deposited data

Results flagged for a closer look

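In 5 of 64 groups of 4 arrays (both genotypes of each measured gene and of Gusb), 1 array stood so far from the other 3 that its gap to the nearest of them passed the 95% critical value of Dixon's ratio for 4 samples. Chance gives this in about 1 in 20 groups. Normal 2 stood low in 3 genes: Chst15 at 6.93 against 8.64 to 8.67 in the other normals, Extl2 at 9.16 against 9.87 to 9.91, and Hs2st1 at 8.32 against 9.15 to 9.31. In the mutants, Ext1 was 8.15 in mutant 3 against 6.48 to 6.52 in the other 3. Has3 was 4.55 in normal 1 against 3.37 to 3.54 in the other normals, which are under the background level.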

How the results depend on the processing

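No alternative called any of the measured genes: 0 passed in each of 23 other fits, with a lowest adjusted p of 0.136 (limma with array weights, Chst11), while the genes called over the whole array numbered 0 to 40. The count of genes whose groups did not overlap, 1, was 2 with the mean of probe sets and 0 without the dim 40% of genes (18 of the 30 left). When 1 animal was left out it was 1 to 6. It was 6 without normal 2, and 2 without normal 1, normal 3, mutant 1, mutant 2 or mutant 3. It was 10 without normals 1, 3 and 4 and 8 without mutants 1 and 3, with fewer arrays to overlap. The share over all genes was not counted in these settings. Class medians moved for the linker to -0.17 with regional components and -0.23 without normals 1, 3 and 4, for hyaluronan to 0.062 and 0.088, and for heparan sulfate to 0.029 and 0.067 in the same fits. The chondroitin and dermatan sulfate median was -0.12 without mutants 1 and 3. It turned to 0.081 without the dim 40% of genes and to 0.039 with regional components. With 1 animal left out, it ran from -0.18 to -0.0095, the hyaluronan median from -0.31 to 0.041, the linker median from 0.046 (without normal 1) to 0.31, and the heparan sulfate median from -0.17 to 0.033 (without normal 4). The sign turned with the mean of probe sets for Extl3 (-0.011) and Fam20b (-0.20), with array weights for B3galt6 (0.012), and with regional components for Xylt2 (-0.64), B3gat3 (-0.15), Extl2 (0.053) and Has3 (0.063). Without normals 1, 3 and 4 it turned for Xylt2 (-0.55), B3gat3 (-0.34), Extl2 (0.20), Extl3 (-0.027), Chpf2 (-0.026) and Has3 (0.14). Has3 turned to 0.051 without normal 1. The change of the brighter Gusb probe set ran from -0.061 to 0.37 with 1 animal left out and turned to -0.057 without normal 1 and -0.061 without mutant 1. The cause of these turns was not tested. No paired analysis was possible from the labels alone, because the labels give no replicate number that both genotypes share. By sex and age, mice 1 of both genotypes matched (females of 38.3 weeks), as did mice 2 (males of 25.6 weeks). Mice 3 were males and mice 4 females in both genotypes, but their ages differed. A fit with these matches as pairs was not run, so its effect was not tested. Fits with age as a random block and with the animal number series as a block were run instead and called 0 members each. The Chst15 change was -1.41 with age as block (limma adjusted p = 0.742) and -1.30 with the number series (limma adjusted p = 0.659). Signals near background limit Chst11, Has2, Has3 and Ndst3, and the weaker Extl3 probe set that enters its mean of probe sets.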
